A study of Mus musculus with 8 samples.

Results

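The transcripts of 9 genes that write, read or remove DNA methylation were followed in mouse embryonic stem cells (mESCs) cultured on the SJ-10 satellite or on the ground. The members were the rows of the gene count matrix whose Ensembl identifier maps to Dnmt1, Dnmt3a, Dnmt3b, Dnmt3l, Uhrf1, Tet1, Tet2, Tet3 or Mbd3, and all 9 were found among the 50686 identifiers of the table. The 8 RNA-seq libraries differed in location (space or ground), genotype (R9wt, wild-type mESCs, or R9del, Rad9-/- mESCs) and culture duration (D1 for 1 day, D5 for 5 days), with 1 library for each condition and therefore no replicate of any condition. All cultures, ground controls included, grew in the same kind of sealed payload without control of oxygen or carbon dioxide, were fixed in RNAlater and were kept cold until extraction. Microgravity, radiation and the vibration of launch and return all belong to location here and cannot be told apart. The D1 and D5 devices had a temperature control of their own and, like the genotypes at D5, different numbers of seeded cells. D1 cells were also fixed earlier than D5 cells, and the space plates were processed after the return, so D1 cells lay longer in RNAlater. Culture duration therefore cannot be told apart from device, seeding and time in fixative. Nothing in the sources used here says how many independent clones the R9del cells came from.

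DNA methylation in mammals sits mainly on the cytosine of CpG dinucleotides. Dnmt3a and Dnmt3b place new marks (de novo methylation), Dnmt3l is a catalytically inactive partner that stimulates them, and Dnmt1 copies existing marks to the daughter strand after replication, guided there by Uhrf1, which recognises hemimethylated CpGs. The TET dioxygenases Tet1, Tet2 and Tet3 oxidise 5-methylcytosine and so start its removal. Mbd3 belongs to the methyl-CpG binding family by sequence, binds methylated DNA poorly in mammals, and is a core subunit of the NuRD complex, which joins a chromatin remodeller with histone deacetylases, so it is neither a writer nor an eraser. Mouse ES cells are known for expressing Dnmt3b, Dnmt3l, Tet1 and Tet2 together, and for surviving the loss of DNA methylation.

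The libraries held between 58238440 and 96416907 counts, and levels are given as CPM (counts normalized to library size, scaled by TMM). A count of 0 would allow up to 3 counts, at most 0.0503 CPM. The lowest count of any member was 351 reads, Tet3 in Ground_R9wt_D5, which equals 3.92 CPM with a 95% Poisson interval of 3.52 to 4.35 that covers counting error only. Rad9a, the gene deleted in R9del cells, averaged 24.9 CPM ± 3.55 (SD, n = 4) in R9del and 84.7 CPM ± 10.1 in R9wt libraries. The 9 measured mESC markers were above 1 CPM in every library, with summed levels of 5295 to 7954 CPM on the ground and 4403 to 6017 CPM in space. The 7 fibroblast feeder markers summed to 22.9 to 50.8 CPM, mainly Thy1 (11.8 to 38.7 CPM) and Col1a1 (3.85 to 10.4 CPM). At most 3 passed 1 CPM in any library, and Dcn and Lum were at 0 in 6 and 7 of the 8 libraries.

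The sequences just upstream of 4 members are shown because these genes carry the comparisons below. Dnmt1 and Uhrf1 were higher in space in 4 of 4 matched pairs, though neither was called. Tet2 had the widest range over the 8 libraries, through its low value in Ground_R9wt_D5, and Mbd3 was the member called lower in space. Each is the 250 bases before a protein-coding start in the mm9 genome (GENCODE models), the window with the most CpGs among the starts of that gene that hold no annotated exon of it, written 5′ to 3′ on the strand of the gene with each CpG in capitals. The windows lie at chr9:20757318-20757567 (minus strand) for Dnmt1, chr17:56443486-56443735 (plus strand) for Uhrf1, chr3:133207355-133207604 (minus strand) for Tet2 and chr10:79862296-79862545 (minus strand) for Mbd3. Those of Dnmt1, Tet2 and Mbd3 adjoin the 5′ end of the gene model, and that of Uhrf1 is intronic to a longer Uhrf1 transcript.
Dnmt1: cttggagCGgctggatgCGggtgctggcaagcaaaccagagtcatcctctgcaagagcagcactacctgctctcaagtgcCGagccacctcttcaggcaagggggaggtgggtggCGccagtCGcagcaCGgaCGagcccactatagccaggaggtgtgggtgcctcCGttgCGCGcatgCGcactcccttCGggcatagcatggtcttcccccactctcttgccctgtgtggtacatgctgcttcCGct
Uhrf1: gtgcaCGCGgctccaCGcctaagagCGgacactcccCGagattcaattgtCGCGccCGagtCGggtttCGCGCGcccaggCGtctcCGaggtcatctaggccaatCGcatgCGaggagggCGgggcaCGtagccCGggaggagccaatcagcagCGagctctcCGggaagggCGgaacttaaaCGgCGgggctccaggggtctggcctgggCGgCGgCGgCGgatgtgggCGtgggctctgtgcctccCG
Tet2: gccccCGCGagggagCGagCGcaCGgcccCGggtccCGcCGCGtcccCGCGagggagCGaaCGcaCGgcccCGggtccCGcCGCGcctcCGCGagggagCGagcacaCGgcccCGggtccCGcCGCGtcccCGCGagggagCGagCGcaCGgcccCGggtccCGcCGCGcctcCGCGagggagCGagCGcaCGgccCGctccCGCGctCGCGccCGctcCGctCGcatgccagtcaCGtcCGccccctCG
Mbd3: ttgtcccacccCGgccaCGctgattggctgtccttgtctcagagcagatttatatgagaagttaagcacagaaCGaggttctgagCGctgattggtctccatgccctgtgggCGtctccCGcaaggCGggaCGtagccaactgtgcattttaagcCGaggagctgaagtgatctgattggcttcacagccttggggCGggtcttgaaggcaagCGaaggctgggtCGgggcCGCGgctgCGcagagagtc

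These windows hold 13 CpGs for Dnmt1, 30 for Uhrf1, 51 for Tet2 and 15 for Mbd3, against a median of 9 (quartiles 3 and 18) over 21667 windows chosen in the same way. The Tet2 window holds more CpGs than 99.9% of them and the Uhrf1 window more than 92.7%. Among the other members, Dnmt3a has 37, Dnmt3b 21, and Dnmt3l and Tet1 4 each, while every window of Tet3 overlaps one of its own exons and was left out. Searched on both strands, GGGCGG (the GC box) occurs in the windows of Dnmt3a, Dnmt3b, Dnmt3l, Uhrf1, Tet2 and Mbd3 and in 41.2% of all windows. CCAAT occurs 2 times for Uhrf1, 2 times for Tet1 and 3 times for Mbd3, and in 34.7% of all windows. TTTCGCGC, one of the sequences that E2F factors bind, occurs once, in the Uhrf1 window, and in 0.282% of all windows. These are matches of letters, and no binding or methylation was measured here.

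Per kilobase of merged exons, Mbd3 was the highest member in each ground library, and the maintenance pair and Dnmt3l were the 3 highest in each space library. Uhrf1 ranged from 39.9 to 100.2 CPM per kb over the 8 libraries, Dnmt1 from 33.3 to 91.1, and Dnmt3l from 48.7 to 59.1. Mbd3 ranged from 65.9 to 159.5 CPM per kb on the ground and from 15.3 to 28.2 in space, and its ground values lay above those of every other member on the ground. In space its range overlapped that of Tet1 (19.6 to 30.5), with both D5 libraries below every space value of Tet1. The ranges of Uhrf1, Dnmt1 and Dnmt3l over the 8 libraries overlap one another. Tet1 (5.71 to 33.9 CPM per kb) and Dnmt3b (9.40 to 32.6) came next and overlap as well, followed by Tet2 at 1.12 to 14.7. The lowest levels were those of Dnmt3a, at 0.942 to 2.86 CPM per kb, and Tet3, at 0.354 to 0.987, which overlap only at their edges. Merged exons join every annotated transcript of a gene, so levels per kilobase, and the order of the members, depend on the gene models. Dnmt3a has 16642 merged exonic bases, Dnmt3b 5106 and Mbd3 1987. Levels of Uhrf1 and Dnmt3b are less certain in another way. Of their exonic 31-base words, 36.43% and 13.20% occur elsewhere in the mm9 genome, and the handling of such reads is not given in the sources used here.

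**Figure D1:**
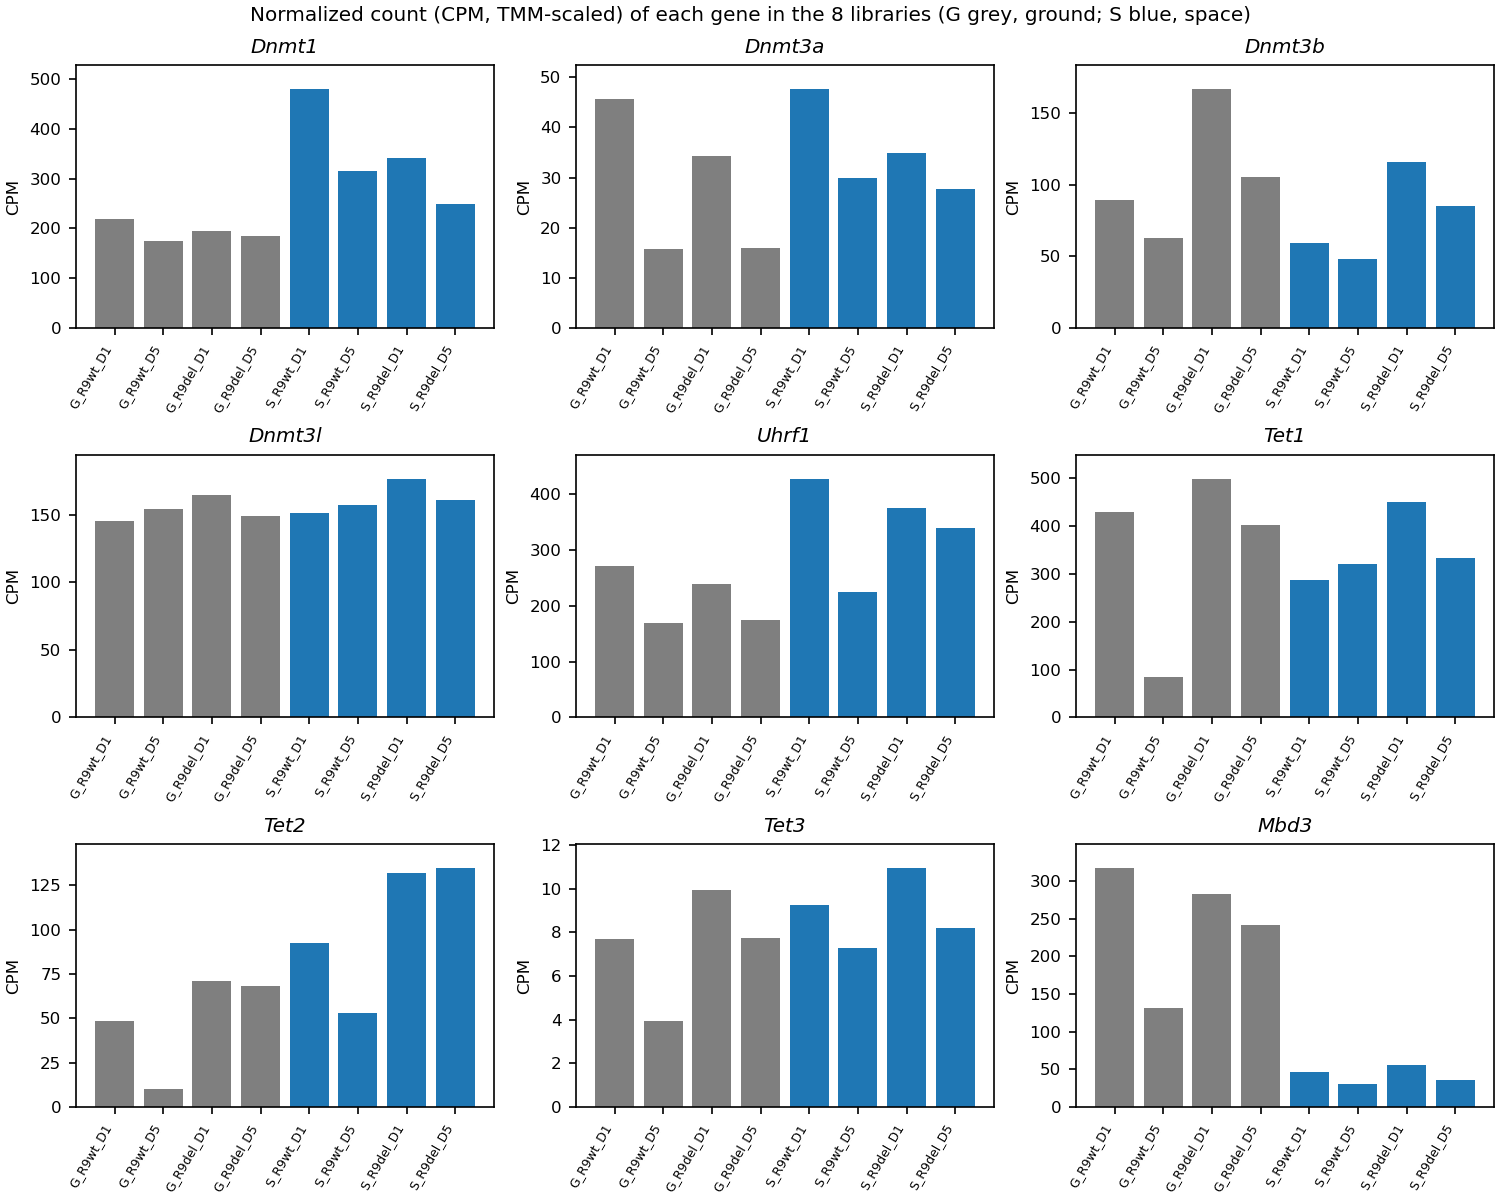
Bars give the normalized count (CPM, each axis from 0) of the 9 genes in each of the 8 libraries, grey for ground (G) and blue for space (S), with 1 library per condition. Mbd3 lies between 30.5 and 56.0 CPM in space and between 131 and 317 CPM on the ground, and Tet1 and Tet2 are lowest in Ground_R9wt_D5.

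The first comparison asked how the 4 space libraries differ from the 4 ground libraries, as the study grouped them. Mbd3 was the only member called: it fell 5.78-fold in space and passed the threshold that the study used (fold change of 2 or more, unadjusted p below 0.05), here in edgeR's quasi-likelihood test. Of the 20544 genes tested, 8.39% were called lower and 2.58% higher in space by that rule, so 1 of 9 members lower and 0 of 9 higher is close to the background. With a Benjamini-Hochberg adjusted p under 0.05 the shares over all genes were 5.31% lower and 1% higher, and among the members Mbd3 alone passed. The median log2 fold change was 0.28 over the 9 members and 0.01 over all genes tested.

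Mbd3 was measured at 317, 131, 282 and 242 CPM in the ground libraries (R9wt D1, R9wt D5, R9del D1 and R9del D5, the order used throughout) and at 46.1, 30.5, 56.0 and 35.5 CPM in the space libraries. The lowest ground library thus stood above the highest space library, as did 9.38% of all genes tested. The mean was 243 CPM ± 80.7 (SD, n = 4) on the ground and 42.0 CPM ± 11.4 (SD, n = 4) in space. The log2 fold change was -2.53 (SE 0.32), with an edgeR adjusted p of 0.000873, and a two-sided exact permutation test gave p = 0.0286, the smallest that 4 against 4 libraries allow. Between single libraries of the same genotype and day the ratio was 6.88-fold for R9wt D1, 4.29-fold for R9wt D5, 5.04-fold for R9del D1 and 6.82-fold for R9del D5, lower in space each time. Leaving out any 1 library kept the log2 fold change between -2.74 and -2.38.

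Of the 11 other NuRD subunits, 2 were called lower in space and 0 higher, beside 8.39% and 2.58% of all genes, and their median log2 fold change was 0.10. Hdac2, one of the 2 histone deacetylases of the complex, stood at 237, 179, 238 and 220 CPM on the ground and at 29.9, 37.0, 58.6 and 38.9 CPM in space. It fell by 2.41 on the log2 scale (SE 0.24, edgeR adjusted p = 0.000261), and its groups did not overlap. Its paralogue Hdac1 averaged 125 CPM on the ground and 163 CPM in space and was not called. Mta3, one of 3 alternative Mta scaffold subunits, fell 2.12-fold from a mean of 175 to 82.6 CPM, with an edgeR adjusted p of 0.0938. With the matched pairs as a block Mta3 fell 2.08-fold, with an edgeR adjusted p of 0.0159. It was not called without Ground_R9wt_D5 (1.71-fold), Space_R9wt_D1 (1.94-fold) or Space_R9del_D5 (1.99-fold). The remodeller Chd4 averaged 592 CPM on the ground and 634 CPM in space, a log2 fold change of 0.10 (SE 0.19).

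Properties of the genes and the levels of other marker genes are given beside the difference between space and ground. Across 12399 expressed genes with a gene model, the log2 fold change in space had a Spearman rho of 0.333 with merged exon length, of -0.049 with GC content and of -0.197 with the highest GC content of any 200-base window. Genes with 1954 to 3047 merged exonic bases, among them Mbd3 with 1987, had a median of -0.10, and genes with a window of 76.5% GC or more, among them Mbd3 with 82.0%, had a median of -0.24, compared with -2.53 for Mbd3. Dnmt3l, with 2988 bases, is in the same length class as Mbd3, and the other members are in classes of longer genes. The median was 0.06 in the class of Uhrf1 (0.68) and 0.14 in that of Dnmt1 (0.84) and Dnmt3b (-0.46). It was 0.25 among genes of 6157 bases or more, which hold Dnmt3a (0.33), Tet1 (-0.02), Tet2 (1.06) and Tet3 (0.28). The part of gene length and GC content in the members' differences was not tested. The gene models cover 64.6% of the identifiers of the table. Primitive endoderm markers summed to 30.1 to 66.2 CPM on the ground and 16.9 to 220 CPM in space, trophoblast markers to 5.83 to 73.8 and 10.2 to 200.1 CPM, mesendoderm markers to 8.03 to 19.9 and 6.50 to 34.9 CPM, and formative and primed epiblast markers to 44.0 to 99.6 and 44.0 to 88.4 CPM. None of these 4 sums went the same way in all 4 matched pairs. Among the mESC markers Esrrb was called higher in space (2.23-fold, edgeR adjusted p = 0.00793), and Sox2 (1.96-fold lower, edgeR adjusted p = 0.0269) and Utf1 (1.81-fold lower, edgeR adjusted p = 0.0562) fell short of the fold of 2, each of the 3 with groups that did not overlap. Within the primitive endoderm list the genes went in opposite directions: Dab2 made up 138 of the 220 CPM in Space_R9del_D5, Pdgfra rose 3.44-fold in space (edgeR adjusted p = 0.0925), and Sox17 fell 15.1-fold from a mean of 4.12 to 0.272 CPM with groups that did not overlap (edgeR adjusted p = 0.0181). Gsc of the mesendoderm list and Cdx2 of the trophoblast list were also called lower in space, from means of 1.08 and 1.53 CPM. The part of these markers in the members' differences was not tested, and in bulk RNA fewer cells of a type and less RNA per cell cannot be told apart.

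**Figure D2:**
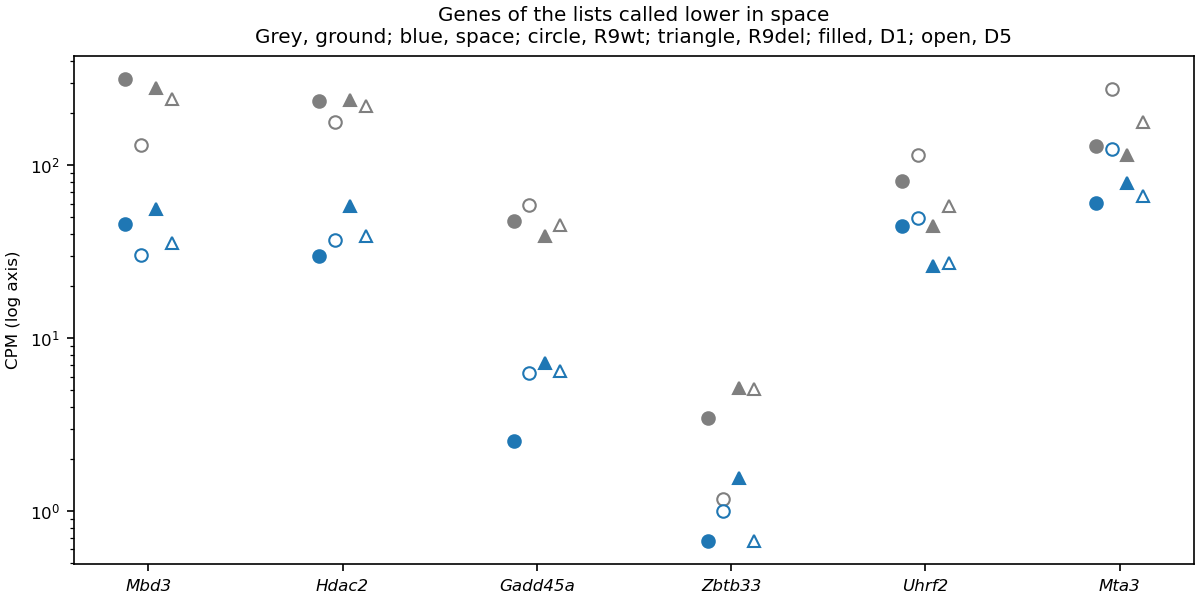
Points give the CPM (log axis) of Mbd3 and of the 5 genes of the pathway lists (readers, NuRD subunits and demethylation genes) called lower in space, in each library, with colour for location, shape for genotype and fill for day. For Mbd3, Hdac2 and Gadd45a every space library lies below every ground library, while Zbtb33, Uhrf2 and Mta3 overlap.

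Dnmt1 and its guide Uhrf1 were higher in space, by less than the fold of 2 that a call needs. Dnmt1 stood at 219, 175, 195 and 185 CPM on the ground and at 480, 315, 342 and 249.8 CPM in space. Its groups did not overlap, a property shared by 5.06% of all genes in the same direction. The mean was 194 CPM ± 18.9 on the ground and 347 CPM ± 96.8 in space (SD, n = 4 each), a log2 fold change of 0.84 (SE 0.22) with an edgeR adjusted p of 0.0547. With the matched pairs as a block it was 0.80 with an adjusted p of 0.0339. Among the single pairs only R9wt D1 passed a fold of 2, at 2.19-fold.

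Uhrf1 stood at 270, 169.7, 238 and 175 CPM on the ground and at 427, 224, 374 and 339 CPM in space, so that Space_R9wt_D5 lay among the ground values. It was higher in space in all 4 matched pairs, with a log2 fold change of 0.68 (SE 0.25, edgeR adjusted p = 0.168). With the matched pairs as a block it was 0.67 with an edgeR adjusted p of 0.0558. The levels of Dnmt1 and Uhrf1 over the 8 libraries had a Pearson r of 0.816 (Spearman rho 0.857). The 8 proliferation genes listed beside them summed to 2840 to 3493 CPM on the ground and 3489 to 4493 CPM in space, higher in space in 4 of 4 matched pairs, and none of the 8 was called. The groups of 2 of them did not overlap, in opposite directions: Mcm2, a replication licensing gene, averaged 340 CPM on the ground and 546 CPM in space (edgeR adjusted p = 0.0986), and Tk1, a thymidine kinase, 80.4 and 58.6 CPM (edgeR adjusted p = 0.213). The other 6 had log2 fold changes between -0.02 (Cdk1) and 0.70 (Mki67). Their part in the levels of Dnmt1 and Uhrf1 was not tested.

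No de novo enzyme was called between the locations. Dnmt3a averaged 27.9 CPM ± 14.7 on the ground and 35.0 CPM ± 8.93 in space (SD, n = 4), and Dnmt3b 106 CPM ± 44.0 and 77.1 CPM ± 30.1. Dnmt3b was lower in space in 4 of 4 matched pairs, by 1.51-fold (R9wt D1), 1.31-fold (R9wt D5), 1.44-fold (R9del D1) and 1.24-fold (R9del D5), with a log2 fold change of -0.46 (SE 0.35). With the matched pairs as a block it was -0.45, with an edgeR adjusted p of 0.162. Dnmt3a had a log2 fold change of 0.33 (SE 0.38), and the space library was 1.04-fold (R9wt) and 1.02-fold (R9del) above its ground partner at D1, and 1.91-fold and 1.74-fold above it at D5. The test of that difference between days gave 0.815 on the log2 scale (SE 0.395, edgeR adjusted p = 0.743), and DESeq2's Wald test gave it an unadjusted p under 0.05. Dnmt3l was nearly level at 153 CPM ± 8.19 and 162 CPM ± 11.0. Without the block, the edgeR adjusted p of the 3 genes lay between 0.557 and 0.859.

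Tet2 was the eraser with the largest difference. It stood at 48.6, 10.3, 71.1 and 68.2 CPM on the ground and at 92.4, 52.8, 132 and 135 CPM in space, higher in space in 4 of 4 matched pairs but with overlapping groups. The log2 fold change was 1.06 (SE 0.52, edgeR adjusted p = 0.325) and was not called. With the matched pairs as a block it was 1.28 with an edgeR adjusted p of 0.0316, which is a call under both thresholds. In that fit 3.02% of all genes were called higher and 8.9% lower, and 8.47% had an adjusted p under 0.05 in either direction, among them Dnmt1, Tet2 and Mbd3. Without Ground_R9wt_D5 its log2 fold change was 0.72 and it was not called. Tet1 (354 CPM ± 184 on the ground, 348 CPM ± 70.1 in space) and Tet3 (7.32 CPM ± 2.5 and 8.91 CPM ± 1.58) had log2 fold changes of -0.02 (SE 0.44) and 0.28 (SE 0.34), and the sign of Tet1 changed with the scaling.

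**Figure D3:**
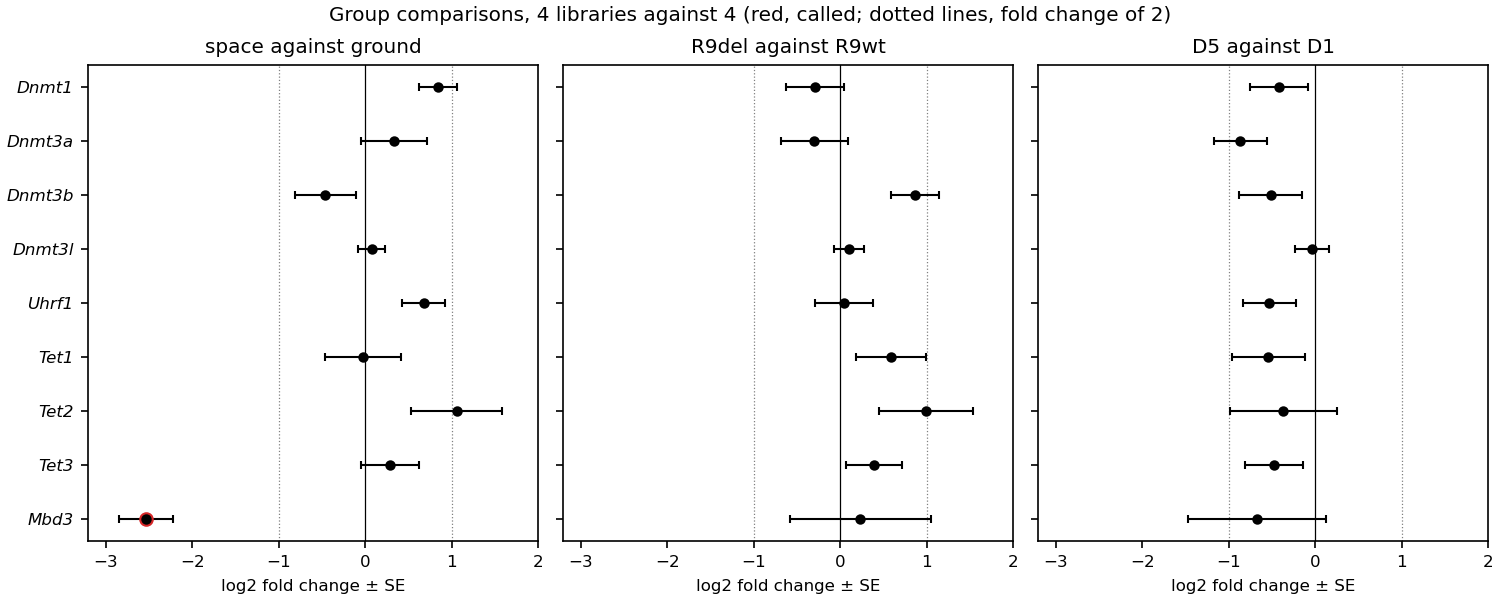
Points give the log2 fold change of each gene with its SE (x axis) in the 3 group comparisons, each of 4 libraries against 4, red where called and with dotted lines at a fold change of 2. Mbd3 in space at -2.53 is the only call, and 8 of the 9 values of D5 against D1 lie between -0.87 and -0.37.

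The second comparison set the 4 R9del libraries against the 4 R9wt libraries. No member was called, whereas 6.17% of genes were called higher and 7.63% lower in R9del; edgeR's exact test and DESeq2's Wald test also called 0 of 9, and 1 of 9, Dnmt3b, had an unadjusted p under 0.05. Over all genes 1.81% had an adjusted p under 0.05, and among the members none did. That share rests on single libraries: genes with an adjusted p under 0.05 and a fold of 2 or more numbered 0 without Ground_R9wt_D5, Ground_R9del_D1, Space_R9wt_D1 or Space_R9del_D1, and 88 to 524 without 1 of the others, against 1402 with edgeR's exact test and 1774 with DESeq2's Wald test on all 8. The median log2 fold change was 0.23 over the members and -0.06 over all genes. No member had groups without overlap, compared with 7.07% of all genes higher and 7.2% lower in R9del.

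Dnmt3b, the de novo enzyme that predominates in early embryos, had the clearest difference by genotype. It stood at 89.6, 62.8, 59.4 and 48.0 CPM in the R9wt libraries (ground D1, ground D5, space D1, space D5) and at 167, 105, 116 and 85.2 CPM in the matching R9del libraries. Every R9del library was above its R9wt partner, by 1.86-, 1.68-, 1.95- and 1.78-fold, although the lowest R9del value lies under the highest R9wt value. The log2 fold change was 0.86 (SE 0.28) with an edgeR adjusted p of 0.131, and 0.86 with an adjusted p of 0.0233 with the matched pairs as a block. Without Ground_R9wt_D1 it was 1.06, which is a call. Of the 4 neural progenitor markers measured, 2 were called higher in R9del, beside 6.17% of all genes: Tubb3 (6.27-fold, edgeR adjusted p = 0.0336) and Neurod1 (3.8-fold, edgeR adjusted p = 0.0683). Nes (1.37-fold) and Pax6 (1.22-fold) were not called. The 4 summed to 28.7 to 55.1 CPM in R9wt and 116 to 149 CPM in R9del libraries. Among the other marker lists Sox7 was called higher (5.28-fold), and Dppa5a (2.07-fold), T (2.24-fold) and Eomes (2.25-fold) lower in R9del, with edgeR adjusted p of 0.131 to 0.234. Their part in the level of Dnmt3b was not tested.

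All 3 TET genes were higher in R9del in 4 of 4 matched pairs, and none passed the test. Tet2 averaged 51.0 CPM ± 33.6 in R9wt and 102 CPM ± 36.9 in R9del libraries (SD, n = 4), a log2 fold change of 0.99 (SE 0.54, edgeR adjusted p = 0.337). With the matched pairs as a block it was 1.26, a call by fold and unadjusted p, with an edgeR adjusted p of 0.0694. That fit called 8.16% of all genes higher and 7.57% lower, and gave an adjusted p under 0.05 to 8.12%, among the members to Dnmt3b. Without Ground_R9wt_D5 the log2 fold change of Tet2 was 0.65. Tet1 had 0.59 (SE 0.41) and Tet3 0.39 (SE 0.33), from means of 280 CPM ± 144 and 421 CPM ± 70.1, and of 7.04 CPM ± 2.25 and 9.20 CPM ± 1.5. Dnmt1, Dnmt3a, Dnmt3l, Uhrf1 and Mbd3 had log2 fold changes between -0.30 and 0.23, each under 1 SE.

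The third comparison set D5 against D1. All 9 log2 fold changes were negative (Dnmt3l at -0.04), with a median of -0.52 beside -0.01 over all genes, and no member was called by edgeR's quasi-likelihood test, its exact test or DESeq2's Wald test. Over all genes 2.43% were called higher and 1.06% lower at D5, and 0% had an adjusted p under 0.05 (35 genes with a fold of 2 or more did in edgeR's exact test and 90 in DESeq2's Wald test). In the blocked fit of matched pairs the shares were 2.87% higher, 2% lower and 0% by adjusted p, and again no member was called.

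Dnmt3a was the 1 of 9 members with an unadjusted p under 0.05. It stood at 45.6, 34.3, 47.6 and 35.0 CPM at D1 (ground R9wt, ground R9del, space R9wt, space R9del) and at 15.7, 15.9, 29.9 and 27.7 CPM at D5. Every D5 library was below every D1 library, which held for 1.17% of all genes in this direction and for 1.68% in the other. The mean went from 40.6 CPM ± 6.98 to 22.3 CPM ± 7.56 (SD, n = 4), a log2 fold change of -0.87 (SE 0.31) with an edgeR adjusted p of 1; without Space_R9wt_D5 it was -1.06, a call by fold and unadjusted p. Dnmt1, Dnmt3b, Uhrf1, Tet3 and Mbd3 were also lower at D5 in 4 of 4 pairs, with log2 fold changes between -0.68 and -0.42 and adjusted p of 1. That of Mbd3 was -0.68, but -1.43 without Ground_R9del_D5 and -0.22 without Ground_R9wt_D1, and was called in neither. Primitive endoderm markers summed to 16.9 to 66.9 CPM at D1 and 46.2 to 220 CPM at D5. The markers called higher at D5 were Gata4 (2.54-fold), Gata6 (2.66-fold) and Dab2 (4.15-fold) of that list, Foxa2 (3.77-fold, mesendoderm), Hand1 (4.46-fold, trophoblast) and Col1a2 (3.7-fold, feeder), and Pax6 (neural) was called lower (4.92-fold), with edgeR adjusted p of 0.918 to 1. The part of these markers in the members' levels was not tested.

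The single libraries show where these averages come from. Of 108 ratios of members between 2 libraries that differ in 1 variable, 15 passed a fold of 2, and 9 of the 15 involve Ground_R9wt_D5. Between space and ground, Dnmt1 and Mbd3 passed in R9wt D1 (34% of all genes did), Mbd3 in R9del D1 (21.1%), Tet1, Tet2 and Mbd3 in R9wt D5 (36.1%) and Mbd3 in R9del D5 (22.9%). Between R9del and R9wt, no member passed on the ground at D1 (22.7% of all genes) or in space at D1 (34.3%), Tet1 and Tet2 passed on the ground at D5 (31.5%) and Tet2 in space at D5 (25.3%). Between D5 and D1, Dnmt3a, Tet1, Tet2 and Mbd3 passed in ground R9wt (29.1%), none in space R9wt (27.6%), Dnmt3a in ground R9del (12.7%) and none in space R9del (14.4%). In 11 of the 12 pairs the share of members past a fold of 2 was below the share of all genes, the exception being D5 against D1 in ground R9wt, with 4 of 9. These ratios have no replicate check.

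In Ground_R9wt_D5, Tet1 was at 83.9 CPM while the other libraries had 288 to 499 CPM, Tet2 at 10.3 CPM while they had 48.6 to 135 CPM, and Tet3 at 3.92 CPM while they had 7.27 to 10.9 CPM. Dnmt1, Dnmt3a and Uhrf1 were lowest there as well. The 3 TET genes had Pearson r of 0.82 (Tet1 and Tet2), 0.903 (Tet1 and Tet3) and 0.92 (Tet2 and Tet3) over the 8 libraries, which without that library came to -0.113, 0.404 and 0.618. The likeness of Tet1 to Tet2 therefore rests on this 1 library.

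Whether a difference in 1 variable depended on another was tested with interaction terms in edgeR. Tet2 showed the only interaction with an unadjusted p under 0.05: its change from D1 to D5 differed between the genotypes by 1.41 on the log2 scale (SE 0.56), and the edgeR adjusted p was 1. In R9wt it went from 48.6 to 10.3 CPM on the ground and from 92.4 to 52.8 CPM in space, while in R9del it went from 71.1 to 68.2 CPM and from 132 to 135 CPM. Of all genes tested, 4.34% had such an interaction of genotype with day, 3.09% of location with genotype and 6.41% of location with day, and among the members the counts were 1, 0 and 0. That of Tet2 did not have an unadjusted p under 0.05 in the fit without the covariate. DESeq2's Wald test gave Dnmt3a such an interaction of location with day. The difference of Mbd3 between space and ground changed with genotype by -0.10 (SE 0.42) and with day by 0.11 (SE 0.41).

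The variable with the largest share differed among the members: location for Mbd3, Dnmt1, Uhrf1 and Tet2, genotype for Dnmt3b and Tet1, culture duration for Dnmt3a and Tet3, and the interaction of genotype with duration for Dnmt3l. Location took 89.76% of the squared deviations of log2 CPM from the mean for Mbd3, 71.58% for Dnmt1 and 52.06% for Uhrf1, which had a further 35.33% with culture duration. Genotype took 61.89% for Dnmt3b, and culture duration 63.99% for Dnmt3a. Tet2 was divided between location (34.29%) and genotype (34%), and Tet1 had no share above 26.9%. The highest library exceeded the lowest 13.1-fold for Tet2, 10.4-fold for Mbd3 and 5.94-fold for Tet1, but only 1.21-fold for Dnmt3l, which was the steadiest member at 146 to 177 CPM. The ranges of Tet2 and Tet1 rest on Ground_R9wt_D5, at 10.3 and 83.9 CPM. Their other libraries had 48.6 to 135 CPM and 288 to 499 CPM. That of Mbd3 does not include this library at either end.

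**Figure D4:**
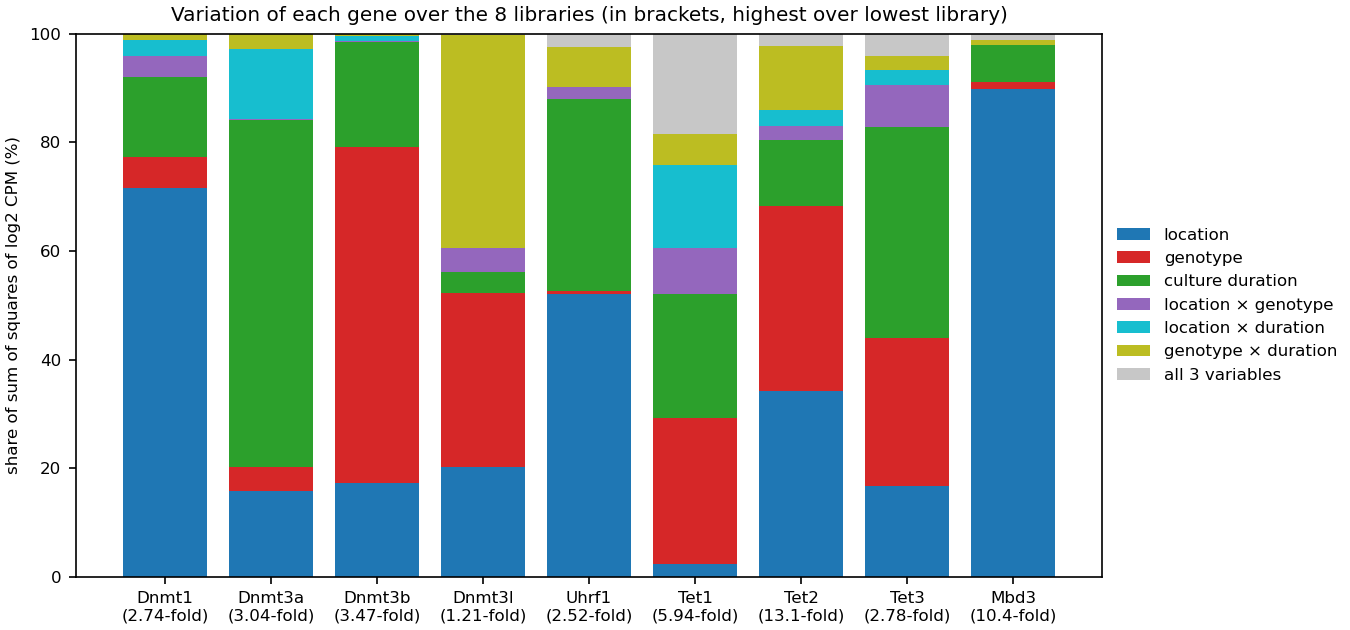
Stacked bars give, for each gene, the percentage of the squared deviations of log2 CPM over the 8 libraries that goes with each variable and their interactions, with the highest-to-lowest fold in brackets. Location fills most of the bars of Mbd3 and Dnmt1, genotype that of Dnmt3b and culture duration that of Dnmt3a, while the Dnmt3l bar divides a range of only 1.21-fold.

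Ratios of related members within a library show how the balance shifted. Per kilobase, Dnmt3b exceeded Dnmt3a 6.40-, 13.1-, 15.8- and 21.6-fold on the ground and 4.07-, 5.23-, 10.8- and 10-fold in space. The ratio was higher in R9del than in R9wt and lower in space than on the ground in each of the 4 matched pairs. Its size rests on the merged exon lengths, 16642 bases for Dnmt3a and 5106 for Dnmt3b, while its order among the libraries does not. In CPM, Dnmt3b stood at 89.6 and Dnmt3a at 45.6 in Ground_R9wt_D1. Per kilobase, Dnmt3l stood at 1.58 to 4.71 times the sum of Dnmt3a and Dnmt3b. Of the summed TET signal per kilobase, Tet1 took 83%, 79.5%, 79.7% and 77.2% on the ground and 64.3%, 77.3%, 66.6% and 59.6% in space. Tet2 took 15% to 20.9% on the ground and 20.3% to 38.5% in space, so its share overlapped only between Ground_R9del_D5 and Space_R9wt_D5. Tet3 took 1.94% to 4.93%. Dnmt1 was 0.261 to 0.505 times Mbd3 on the ground and 2.30 to 3.93 times in space.

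**Figure D5:**
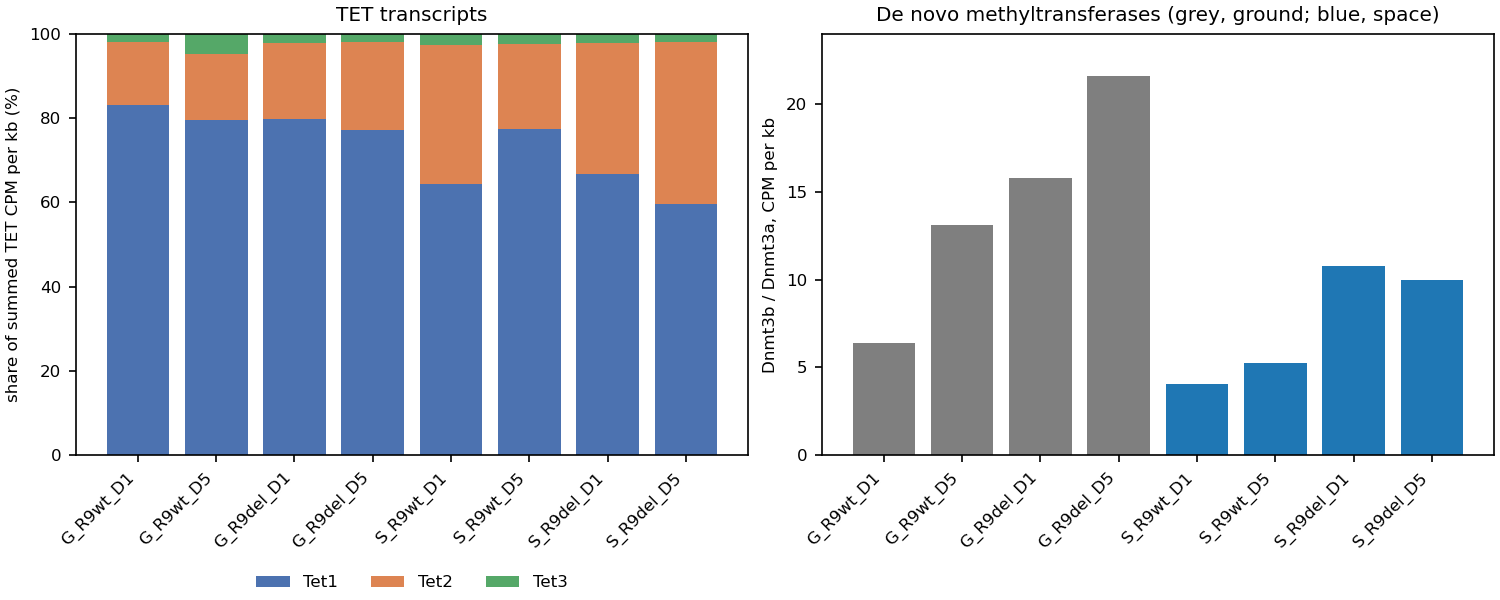
The left bars divide the summed TET level (CPM per kb of merged exons) of each library into Tet1, Tet2 and Tet3 in percent, and the right bars give the ratio of Dnmt3b to Dnmt3a per kb, grey for ground and blue for space. The Tet2 share reaches 38.5% in Space_R9del_D5, and the Dnmt3b to Dnmt3a ratio spans 4.07 to 21.6.

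The wider pathway was described from lists of readers, NuRD subunits, maintenance partners, demethylation genes and the methyl donor cycle. The counts of these short lists stand beside the shares over all genes, 2.58% higher and 8.39% lower in space, 6.17% higher and 7.63% lower in R9del and 2.43% higher and 1.06% lower at D5, and are not read as differing from them. In space, 2 of 8 methyl-CpG readers were called lower and 0 higher (median log2 fold change 0.08). Uhrf2, the paralogue of Uhrf1, fell 2.03-fold from 74.5 to 36.8 CPM (edgeR adjusted p = 0.124). With the matched pairs as a block it fell 1.98-fold, under the fold of 2, while its edgeR adjusted p was 0.0171. Leaving out 1 of 4 libraries also ended the call (1.67-fold without Ground_R9wt_D5, 1.97-fold without Ground_R9wt_D1, 1.85-fold without Space_R9del_D1, 1.87-fold without Space_R9del_D5). Zbtb33, which encodes the reader Kaiso, fell 3.82-fold from 3.72 to 0.973 CPM (edgeR adjusted p = 0.0699). Of 11 demethylation and TET partner genes, 2 rose and 1 fell by the same rule (median -0.25). Gadd45a, a stress-inducible gene linked to active demethylation, fell 8.52-fold from 47.7 to 5.60 CPM (edgeR adjusted p = 0.000496), and its groups did not overlap. Ogt, the O-GlcNAc transferase that binds TET proteins, rose 2.18-fold from 99.1 to 217 CPM (edgeR adjusted p = 0.0939). It was higher in 3 of 4 matched pairs, reached 373 CPM in Space_R9wt_D1, went from 134 to 119 CPM in R9del D5, and was not called without Space_R9wt_D1 (1.66-fold). Apobec1, a cytidine deaminase, rose 2.28-fold from 7.19 to 16.4 CPM (edgeR adjusted p = 0.109) and was not called without Ground_R9wt_D1 (1.98-fold). None of 10 maintenance partners (median -0.21) and none of 13 methyl donor genes (median 0.04) was called in space.

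Over all genes 6.17% were called higher and 7.63% lower in R9del, and the list counts here are not read as differing from these shares. In R9del, 1 of 11 NuRD subunits fell (median -0.03): Rbbp7, a histone-binding subunit, went from 1248 to 484 CPM (2.58-fold, edgeR adjusted p = 0.068), and was not called without Space_R9wt_D5 (1.88-fold). Of 10 maintenance partners and imprint guardians, 1 rose and 1 fell (median 0.18). Zfp57, which keeps imprints methylated, rose 2.08-fold from 323 to 674 CPM (edgeR adjusted p = 0.0977), and was not called without Space_R9wt_D5 (1.84-fold), Space_R9del_D1 (1.92-fold) or Ground_R9del_D5 (1.98-fold). Dppa3, which shields methylation in the early embryo and binds Uhrf1, fell 3.83-fold from 19.4 to 5.05 CPM (edgeR adjusted p = 0.191). Its level was 48.3 CPM in Ground_R9wt_D5 and 17.9 CPM or less in every other library. Without Ground_R9wt_D5 the difference was 1.92-fold and not called, without Ground_R9del_D5 it was 6-fold and called, and without any 1 of the other R9del libraries it was 3.36- to 3.46-fold and not called. Of 11 demethylation genes, 1 rose and 2 fell (median -0.11). Apobec2 rose 2.52-fold from 4.66 to 11.8 CPM (edgeR adjusted p = 0.0659), and Gadd45b and Gadd45g fell 4.32- and 4.49-fold (edgeR adjusted p of 0.113 and 0.116), with 185 and 162 CPM in Ground_R9wt_D5 and 65.6 CPM or less in every other library. Without that library Gadd45b differed 1.93-fold and was not called, and Gadd45g fell 2.54-fold. Of 13 methyl donor genes 1 rose (median 0.06): Mat2a, which makes the methyl donor S-adenosylmethionine, went from 244 to 625 CPM (2.56-fold, edgeR adjusted p = 0.0406). It stayed called by fold and unadjusted p without any 1 library, at 2.32- to 2.8-fold, while its adjusted p was 0.0435 without Ground_R9wt_D1 and 0.0545 to 0.123 without 1 of the other 7. With the matched pairs as a block each of these genes stayed called in R9del. The edgeR adjusted p was then 0.0391 for Rbbp7, 0.0166 for Zfp57, 0.0395 for Dppa3, 0.0369 for Apobec2 and 0.0107 for Mat2a. For Gadd45b it was 0.0501 and for Gadd45g 0.114. None of 8 readers was called (median -0.003). At D5 the 1 call over these lists was Dppa3, which rose 4.53-fold from 4.41 to 20.0 CPM (edgeR adjusted p = 1) and was not called without Ground_R9wt_D5 (2.4-fold), and the list medians lay between -0.26 and 0.20.

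For each member the genes with the most similar pattern were sought among 13046 genes by Pearson r of log2 CPM over the same 8 libraries. Mbd3 was closest to Supv3l1 (r = 0.9966) and Ccna2 (0.9901), Dnmt1 to Ncapd3 (0.9895) and Phf21a (0.9818), and Uhrf1 to Usp44 (0.9711) and Gcnt1 (0.9701). Tet1 was closest to Bbs12 (0.9955) and Ccdc64 (0.9884), Tet2 to 2810021J22Rik (0.9821) and Eya3 (0.9775), and Tet3 to E2f8 (0.9789) and Zfp532 (0.974). Dnmt3b was closest to an unnamed gene (0.9945) and Zfp423 (0.9848), Dnmt3a to Pdgfrl (0.9244) and Zfp786 (0.9122), and Dnmt3l to Efnb2 (0.9497) and Slc26a2 (0.9467). These values describe 8 libraries and carry no test.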

How the data were processed

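RNA-seq reads (paired-end) were aligned by the authors to mm9 with TopHat2 2.0.9. They deposited whole-number read counts per Ensembl gene for 8 libraries, unnormalized. The counting program, annotation and strand setting are not given in the sources used here. From these counts CPM with TMM factors was computed (edgeR 4.0.16, R 4.3.3), and log2 CPM with a prior count of 2. Groups came from the sample titles. Groups of 4 libraries were compared by the quasi-likelihood F test of edgeR after filterByExpr with a minimum count of 10, genes were called at 2-fold or more with unadjusted p below 0.05, and adjusted p-values (Benjamini-Hochberg) run over all genes tested. Libraries of a group differ in the other variables, so p-values measure the spread between conditions, not between replicate cultures. The code was tested on simulated data.

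Libraries that share the other 2 variables in their labels deviated together (correlations of 0.282 to 0.609 for space and ground, 0.349 to 0.488 for genotype and 0.375 to 0.574 for day), so each comparison was refitted with these pairs as a block, given where it changes a result. Genes named by rule are the members, called genes of the pathway lists, the 2 genes most like each member and Rad9a. Hdac1, Chd4 and single marker genes were named after their values were seen. Markers were written for 7 cell states, and neural, feeder and the other sums are given where they bear on a result. The members and lists were chosen with earlier results of these data known. Alternatives were DESeq2 1.42.0 scaling and Wald test, library size alone, no filter, the exact test, the block, covariates and leaving out each library. Gene models and windows came from GENCODE vM1 on mm9.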

Additional observations from a re-analysis of the deposited data

Results flagged for a closer look

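Tet1 in Ground_R9wt_D5, at 6.39 log2 CPM (83.9 CPM), lies far from the other ground libraries (403 to 499 CPM) and from the other D5 libraries (321 to 403 CPM). Tet3 in the same library, at 1.98 log2 CPM (3.92 CPM), lies far from the other D5 libraries (7.27 to 8.18 CPM). Of 54 groups of 4 libraries examined in this way, chance alone would set apart about 1 in 20, and the groups share libraries. The change of Tet2 from D1 to D5 differed between R9del and R9wt by 1.41 on the log2 scale in edgeR's quasi-likelihood test, with an adjusted p of 1. Without the covariate in that fit its unadjusted p was not under 0.05.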

How the results depend on the processing

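Of the log2 fold changes of the 9 members in 3 comparisons, recomputed under 15 settings, 375 kept their direction and their side of the threshold, 10 newly passed it and 20 changed sign. Mbd3 stayed called in space under each alternative run, with an edgeR or DESeq2 adjusted p of 3.88e-11 to 0.00576, whereas that of Dnmt1 ranged from 0.00769 to 0.152 and that of Uhrf1 from 0.0465 to 0.358. The number of members called in space was 2 (Mbd3 and Tet2) with the exact test of edgeR, the Wald test of DESeq2, the block of matched pairs and the covariate fit, and 1 to 2 when 1 library was left out (2 without Space_R9wt_D5). In R9del it was 1 (Tet2) with the block or the covariates and 0 to 1 with 1 library left out (Tet2 without Space_R9wt_D1, Dnmt3b without Ground_R9wt_D1), and at D5 0 to 1 (Dnmt3a without Space_R9wt_D5). The block changed no other call of a member, and ended that of Uhrf2 in space through its fold (1.98-fold, edgeR adjusted p = 0.0171). Chosen after seeing the data, each library was also left out for the called genes of the pathway lists, and no direction changed. Genes called at D5 numbered 1284 without a filter and 1100 with covariates instead of 718. Members interacting came to 1 (Dnmt3a) for location with day by DESeq2's Wald test and to 0 for genotype with day without the covariate.

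The sign of Tet1 in space changed to 0.017 with size factors from DESeq2, 0.031 with its Wald test, 0.032 with library size alone, 0.194 with the block and 0.135 with covariates, and lay between -0.349 and 0.19 with 1 library left out. Leaving out 1 library gave Dnmt1 in R9del -0.501 to 0.054, Uhrf1 in R9del -0.125 to 0.361, Mbd3 in R9del -0.238 to 1.15, and Dnmt3l at D5 -0.083 to 0.017. The causes were not tested. With 1 library per condition, counting error is small beside the spread between libraries, which limits these tests.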
